A study of Arabidopsis thaliana with 24 samples.

Results

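The plastid genome of Arabidopsis carries, beside its photosynthesis genes, a set of housekeeping genes that make and run the plastid's own gene expression machinery. They encode ribosomal proteins of both subunits (rps and rpl genes), the core of the plastid-encoded RNA polymerase (rpoA, rpoB, rpoC1, rpoC2), the intron maturase matK, the protease subunit clpP, the acetyl-CoA carboxylase subunit accD, the cytochrome and photosystem assembly factors ccsA, ycf3 and ycf4, the envelope protein gene cemA, and the large reading frames ycf1 and ycf2, whose products sit at the inner envelope. Probe sets were taken as members where the array's platform annotation gives a plastid locus whose symbol does not begin with psa, psb, pet, ndh, atp or rbcL, with 1 further probe set taken by its locus. In all 34 probe sets for 33 genes qualified out of 22746, and 31 of them had a signal of at least 50 on all 12 total RNA arrays and entered the tests with 12906 probe sets in all.

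As background, plastid genes are read by more than 1 kind of polymerase: a bacterial-type enzyme with a plastid-encoded core and nuclear-encoded sigma factors, and phage-type enzymes encoded in the nucleus. Photosynthesis genes are served mainly by the former, and several housekeeping genes, among them rpoB, accD and clpP, are known as targets of the latter. Many plastid genes lie in clusters that are read as long joint transcripts and are then cut, spliced and edited. Plastid transcripts as a rule lack the stable poly(A) tails of nuclear mRNA, and the array labeling kit primes from oligo-dT. How this affected the signals below was not tested.

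Whole Columbia seedlings, 10 days old by the labels, had germinated at 22°C for 3 days and then grown for 7 days at 17°C or 27°C in cycles of 12 h white light and 12 h dark, and had floated on MS medium for 12 h. 4-thiouridine (4SU, given as 1.5 mM in the labels, whereas the methods say that concentrations differed between conditions) was added at time 0, soon after dawn, and RNA made afterwards carried the label. Labeling lasted 2 h at 17°C and 1 h at 27°C, so temperature and labeling time cannot be told apart in any comparison that involves the end point. At the end, total RNA was split into labeled, newly synthesized RNA (NS) and unlabeled, pre-existing RNA (PE), which with total RNA at time 0 and at the end gives 8 groups of 3 ATH1 arrays each. The plants of all groups share genotype and medium, no time 0 plants received 4SU, and the fractions are from the same plants as the total RNA of the end point.

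Every value below is a MAS5 signal, which the authors set to a common trimmed mean on each array (495.5 to 497.3 here), so a fold between NS and PE is a fold between relative amounts. Probe sets differ in brightness, and signals are compared only within a probe set. Of the listed markers of the tissue, 1 of 5 green shoot genes and 2 of 5 root genes were matched to a tested probe set. A match needed the locus in the platform annotation or the paper's supplementary table, so an unmatched gene may still be on the array. The Rubisco activase RCA had a mean total signal of 19160, and the root beta-glucosidase PYK10 and the root hair expansin EXPA7 had 13044 and 163. For the members some arrays stood apart from their group: 27 of 31 were above the group mean on array 2 of total RNA at 27°C after 1 h and 1 of 31 on array 1, 29 of 31 on array 2 of NS at 27°C and 2 of 31 on array 3, and 3 of 31 on array 3 of total RNA at 17°C at time 0. The other plastid probe sets, those of photosynthesis genes, lay on the same side of the group mean on these arrays (34, 8, 33, 7 and 5 of 40 above it). Over the members the log2 signals of replicate arrays had a lowest Pearson's r of 0.892, between PE arrays at 27°C.

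The brightest member was rpl2, a large-subunit protein gene with a copy in each inverted repeat. Its total RNA signal was 20855, 18892 and 16969 at 17°C at time 0, 21822, 16234 and 18669 at 17°C after 2 h, 18963, 19139 and 17859 at 27°C at time 0, and 18940, 20558 and 17826 at 27°C after 1 h. The 4 groups overlapped, and no contrast of total RNA had an estimate further from 0 than 0.04 on the log2 scale. The dimmest was rpoB, the polymerase beta subunit gene, with 78.2, 98.9 and 39.5 at 17°C at time 0, 56.8, 22.5 and 64.0 after 2 h, 46.9, 61.8 and 50.8 at 27°C at time 0, and 23.7, 86.4 and 52.8 after 1 h. Together with rps14 (lowest signal 12.9) and ycf2 (lowest signal 44.5) it fell below 50 on at least 1 total RNA array and was left out of the tests. A fit without the limit on signal called none of these 3 members in any contrast.

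The first question was how the housekeeping transcripts stood in the newly made RNA against the RNA that was already there. A probe set was called where limma's test over all 12 fraction arrays gave a Benjamini-Hochberg adjusted p below 0.01 and a fold above 1.5. By this rule matK, rps18 and ycf1 were higher in NS at both temperatures and rps15, rps16 and ccsA at 17°C, while rpl23, rps12, cemA, rpl22, rpl32, rpl2 and rps3 were lower in NS, and thus higher in PE, at both.

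**Figure D1:**
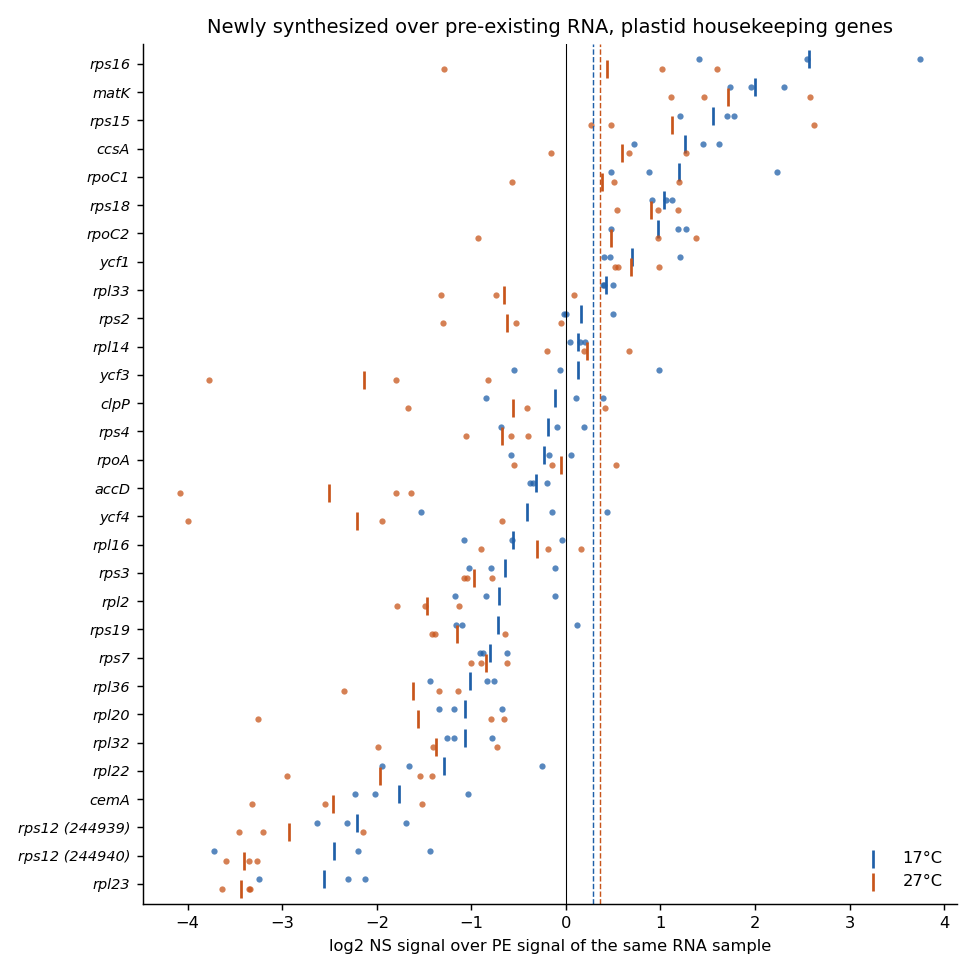
Log2 of the NS signal over the PE signal of the same RNA sample (x axis) for 30 of the 31 members with a signal of at least 50 (y axis, ordered by the mean at 17°C). Points are the 3 RNA samples per temperature, bars their mean, and dashed lines the median of all 12906 probe sets; rpl23 and both rps12 probe sets lie below 0 in every sample, matK, rps15, rps18 and ycf1 above 0 in every sample.

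At 17°C 6 members were called higher and 8 lower in NS than in PE, while 57.4% of all probe sets were called in either direction (35.6% higher and 21.9% lower). The median of the members was −0.23 on the log2 scale against 0.29 for all probe sets. At 27°C 3 members were higher and 14 lower, while 55.7% of all were called (37.7% higher and 17.9% lower), with medians of −0.68 and 0.37. The low NS was not particular to the members. Of 40 photosynthesis genes 2 were higher and 14 lower at 17°C (median −0.76), and 3 higher and 23 lower at 27°C (median −1.28). The 8 lower members at 17°C were all lower at 27°C, where they made up 57.1% of the lower ones, and the 3 higher ones at 27°C were 50% of the higher ones at 17°C. Because the arrays were scaled to 1 mean, the median of all probe sets was itself above 0. With each array scaled to its median instead, 3 members were higher and 9 lower at 17°C, and 1 was higher and 18 lower at 27°C. At 17°C the counts fell to 3 higher and 5 lower without NS array 1, to 3 higher without PE array 2, and to 5 lower without PE array 1 or 3. Of the arrays that stood apart, leaving out NS array 2 at 27°C gave 2 higher and 17 lower at that temperature, and leaving out NS array 3 gave 2 higher and 10 lower. Of 29 listed genes for nuclear-encoded plastid ribosomal proteins 7 were matched to a tested probe set. Each of the 7 was lower in NS at both temperatures, with medians of −1.51 and −1.22.

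Among the members high in NS, matK encodes the maturase that assists the splicing of plastid introns. Its NS signals at 17°C were 9258, 6846 and 5450, and its PE signals 1872, 2050 and 1404. At 27°C they were 4807, 8290 and 3911 in NS against 1750, 1389 and 1806 in PE. Every NS array lay above every PE array, and NS was 4.00-fold PE at 17°C (log2 2.00 ± 0.27 SE, limma adjusted p = 2.09e-05) and 3.29-fold at 27°C (1.72 ± 0.27, adjusted p = 8.15e-05). The genes for 3 small-subunit proteins followed. rps16, next to matK on the plastid genome, gave 224, 647 and 262 in NS and 84.6, 48.1 and 44.9 in PE at 17°C, with no overlap (5.92-fold, adjusted p = 0.000729). It is a dim member: the PE values of 48.1 and 44.9 lie below 50. The lowest total RNA signal of rps16 was 82.5, so the fit with a limit of 100 left it out. At 27°C it gave 202, 173 and 133 in NS and 100, 57.4 and 325 in PE. The single PE value of 325, on array 3, was above every NS value. This array also read high for several other members, as given below. The log2 difference of 0.44 ± 0.53 was not called (limma adjusted p = 0.47). The difference between the 2 temperatures in NS minus PE was −2.13 for rps16 and did not pass the test either (limma adjusted p = 0.17).

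rps15 gave 688, 422 and 578 in NS and 298, 123 and 178 in PE at 17°C (2.95-fold, limma adjusted p = 0.0034). At 27°C the NS signals of 381, 1055 and 417 lay above the PE signals of 274, 171 and 347, but the log2 difference of 1.12 ± 0.40 was not called (limma adjusted p = 0.023). The groups did not overlap at either temperature, and 1 NS array at 27°C was more than 1.5-fold above the other two. rps18 gave 772, 906 and 662 in NS against 371, 480 and 304 in PE at 17°C, and 741, 776 and 527 against 376, 341 and 364 at 27°C. NS was 2.05-fold PE at 17°C (limma adjusted p = 0.000397) and 1.87-fold at 27°C (adjusted p = 0.00116), with no overlap. Beyond these, ycf1 was called higher at both temperatures (log2 0.69 and 0.68) and ccsA at 17°C (1.26). The call of ycf1 at 27°C was lost without any 1 of the 6 arrays compared (limma adjusted p from 0.0115 to 0.0411), and its call at 17°C and those of rps15 and ccsA were each lost without any 1 of 4 of the 6. With arrays scaled to their medians, matK kept its call at both temperatures, rps16 and rps18 theirs at 17°C, while rps15 and ccsA at 17°C, rps18 at 27°C and ycf1 at both lost it.

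The members low in NS were led by ribosomal protein genes. rpl23, next to rpl2 in the inverted repeat, had NS signals of 1123, 1307 and 1638 and PE signals of 10622, 5698 and 8113 at 17°C. At 27°C it gave 1067, 970 and 886 in NS and 10776, 9879 and 11032 in PE. The groups were far apart, and PE was 5.89-fold NS at 17°C (log2 −2.56 ± 0.21, limma adjusted p = 3.7e-07) and 10.9-fold at 27°C (−3.44 ± 0.21, adjusted p = 7.42e-08). rps12 is a gene in pieces whose first exon lies apart from the others and is joined to them by trans-splicing, and it is read by 2 probe sets. On 244940_at NS was 297, 730 and 715 and PE 3931, 1979 and 3290 at 17°C, and NS was 336, 510 and 282 and PE 3422, 6169 and 2726 at 27°C. On the dimmer 244939_at NS was 59.2, 29.3 and 51.0 and PE 191, 182 and 254 at 17°C, and NS was 18.0, 50.7 and 43.9 and PE 165, 224 and 481 at 27°C. Neither probe set had an NS value as high as any PE value of its temperature, and PE over NS came to 5.48 and 4.64-fold at 17°C and to 10.6 and 7.64-fold at 27°C (limma adjusted p from 6.17e-06 to 0.000402).

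By role, the large-subunit genes were called lower in 4 of 9 at 17°C (rpl23, rpl22, rpl32, rpl2) and in 6 of 9 at 27°C (also rpl36 and rpl20), and in no case higher, where 21.9% and 17.9% of all probe sets were lower and 35.6% and 37.7% higher. NS and PE of 1 number come from 1 RNA sample, and with that sample as a block rpl2 lost its call at 17°C (limma adjusted p = 0.0118). It was also lost without any 1 of 4 of the 6 arrays compared, that of rpl22 at 17°C without NS array 1, PE array 1 or PE array 3, and that of rpl36 at 27°C without NS array 3 or PE array 2. The small-subunit genes, with 11 probe sets, divided into 3 higher and 3 lower at 17°C, which lies near the shares of all probe sets, and into 1 higher and 4 lower at 27°C. The lower ones include both rps12 probe sets at each temperature, so these counts and those over all members are of probe sets, not genes. Of the small-subunit genes rps3 lost its call at 17°C without any 1 of 5 of the 6 arrays, and rps19 its call at 27°C without NS array 1, NS array 3 or PE array 2. None of the 3 polymerase subunits tested was called, and their estimates at 17°C were 1.20 ± 0.58 for rpoC1, 0.98 ± 0.45 for rpoC2 and −0.23 ± 0.21 for rpoA on the log2 scale. Of the 5 assembly and envelope genes cemA was lower at both temperatures (−1.76 and −2.46), and ycf3 and ycf4, which help to assemble photosystem I, were lower at 27°C. accD, the plastid-encoded subunit of the enzyme that starts fatty acid synthesis, had −0.31 ± 0.44 at 17°C, which was not called, and −2.50 ± 0.44 at 27°C, which was. The difference between the temperatures was not called for accD (−2.19, limma adjusted p = 0.101), ycf3 (−2.25, adjusted p = 0.142) or ycf4 (−1.79, adjusted p = 0.295).

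Among these, ycf3, accD, ycf4 and rpl20 turned on 1 array in part. PE array 3 at 27°C read 4259 for ycf3 against 582 and 1341 on the other two, 1422 for accD against 350 and 624, 2047 for ycf4 against 699 and 645, and 863 for rpl20 against 194 and 301. The same array read 788 for rpoB against 46.6 and 104, and 1183 for rps14 against 41.7 and 105. Without it, limma gave log2 differences of −1.37 for ycf3 (adjusted p = 0.00464) and −1.97 for accD (adjusted p = 0.000645), which were still called, and −1.67 for ycf4 (adjusted p = 0.0264) and −0.95 for rpl20 (adjusted p = 0.0186), which were not. Leaving out NS array 1 or NS array 3 at 27°C also ended the calls of ycf4 and rpl20.

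Between the temperatures, NS minus PE had a lower estimate at 27°C than at 17°C for 28 of the 31 members. The median difference was −0.50, against 0.09 for all probe sets and −0.67 for the photosynthesis genes. No member was called for this difference, and 0.0697% of all probe sets were, with 6 members at an unadjusted p below 0.05 in limma. Within NS, 28 of 31 members had a lower estimate at 27°C, with a median of −0.42 against 0.02 for all and −0.36 for the photosynthesis genes. No member was called while 12% of all were, with 6 members at an unadjusted p below 0.05. Within PE, 23 of 31 had a higher estimate at 27°C, with a median of 0.16 against −0.08 for all and 0.39 for the photosynthesis genes. No member was called while 8.93% of all were, with 4 members at an unadjusted p below 0.05. In PE, ycf3 came nearest to a call, at 2.06 ± 0.52 (limma adjusted p = 0.014), and its high value is the array named above. These 3 contrasts draw on the same 12 arrays. Members moved together on some of the arrays, so a count such as 28 of 31 is not one of independent observations. The same holds for the counts of estimates in total RNA below. The share of all probe sets at an unadjusted p below 0.05 was not counted, so the member counts at that limit have nothing to be set against.

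**Figure D2:**
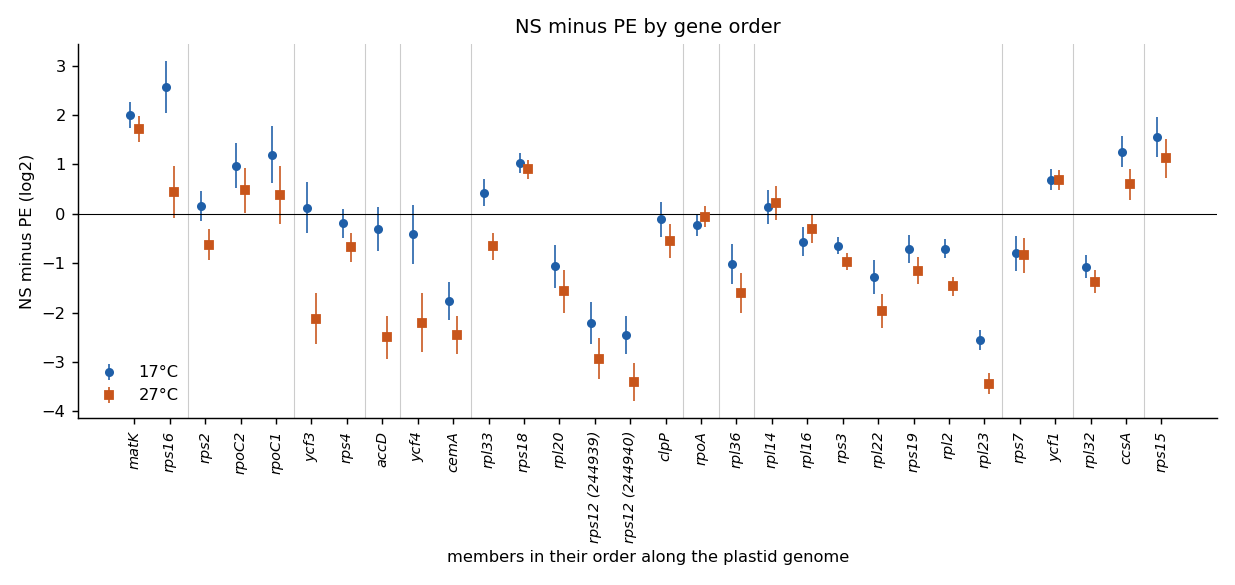
NS minus PE on the log2 scale with its SE (y axis) at both temperatures for 30 members in their order along the plastid genome (x axis, not to scale). Grey lines mark places where other protein genes lie between 2 of those shown; matK and rps16 at one end and rpl23 in the long ribosomal cluster show the extremes at 17°C, 2.57 for rps16 and −2.56 for rpl23.

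Along the genome, neighbours stood together in some places and apart in others. Gene order comes from the RefSeq annotation of the TAIR10.1 assembly. matK and rps16 were the highest pair (2.00 and 2.57 at 17°C), with rps16 on a dim probe set (lowest total RNA signal 82.5). The genes rpoC1 and rpoC2, which share a cluster with rpoB and rps2, had estimates of 1.20 and 0.98 with 0.16 for rps2. In the long ribosomal cluster, the estimates at 17°C ran from rpl23 through rpl2, rps19, rpl22, rps3 and rpl16 as −2.56, −0.71, −0.72, −1.28, −0.64 and −0.56, and then through rpl14 and rpl36 as 0.13 and −1.01. Genes of this cluster, thought to be read together, were thus spread from the lowest estimate of all members to slightly above 0. Steps of more than 2 on the log2 scale lay between rps18 (1.03) and rpl20 (−1.07), between rps12 (−2.46 and −2.21), placed by its first exon, and clpP (−0.12), and between rpl32 (−1.07) and ccsA (1.26). These comparisons across probe sets are descriptions and carry no test.

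Scaled by the regression factors of the methods, the NS signal is put as a percentage of end-point total RNA, called the share here. The factors here were 0.134 for NS and 0.847 for PE at 17°C, and 0.219 and 0.769 at 27°C. The median member share was 10.9 ± 1.25% (SD over 3 replicates) after 2 h at 17°C and 14.9 ± 4.61% after 1 h at 27°C, against 15.6 ± 0.161% and 25.4 ± 0.249% for all probe sets and 9.10% and 12.2% for the photosynthesis genes. Members spanned nearly the whole range of the array. At 17°C rpl23 had a share of 2.18 ± 0.741% and rps15 one of 49.8 ± 16.1%, at percentiles 0.558 and 99.8 of all probe sets. At 27°C the ends were rps12 on 244940_at with 2.21 ± 0.249% and rps15 with 69.2 ± 7.85%. Scaled NS and PE did not add up to total RNA for each member: for rps15 scaled PE alone averaged 113% of total at 17°C and 141% at 27°C, so its share cannot be read as the part of its RNA that was new. The share of matK was 35.6 ± 8.87% and 56.5 ± 23.0%.

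The second question was how total RNA of these genes differed between plants kept at 17°C and at 27°C. In bulk seedling RNA, fewer plastids or plastid-rich cells and less RNA per plastid cannot be told apart. Plants at 27°C had signals called lower for 3 of 31 members at time 0 (9.68%, against 12.1% of all probe sets). They were rpl36 and rpl16 of the large ribosomal subunit and cemA of the envelope. At the end of labeling only clpP, the plastid-encoded proteolytic subunit of the Clp protease, was called (3.23%, against 5.87% of all called lower).

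**Figure D3:**
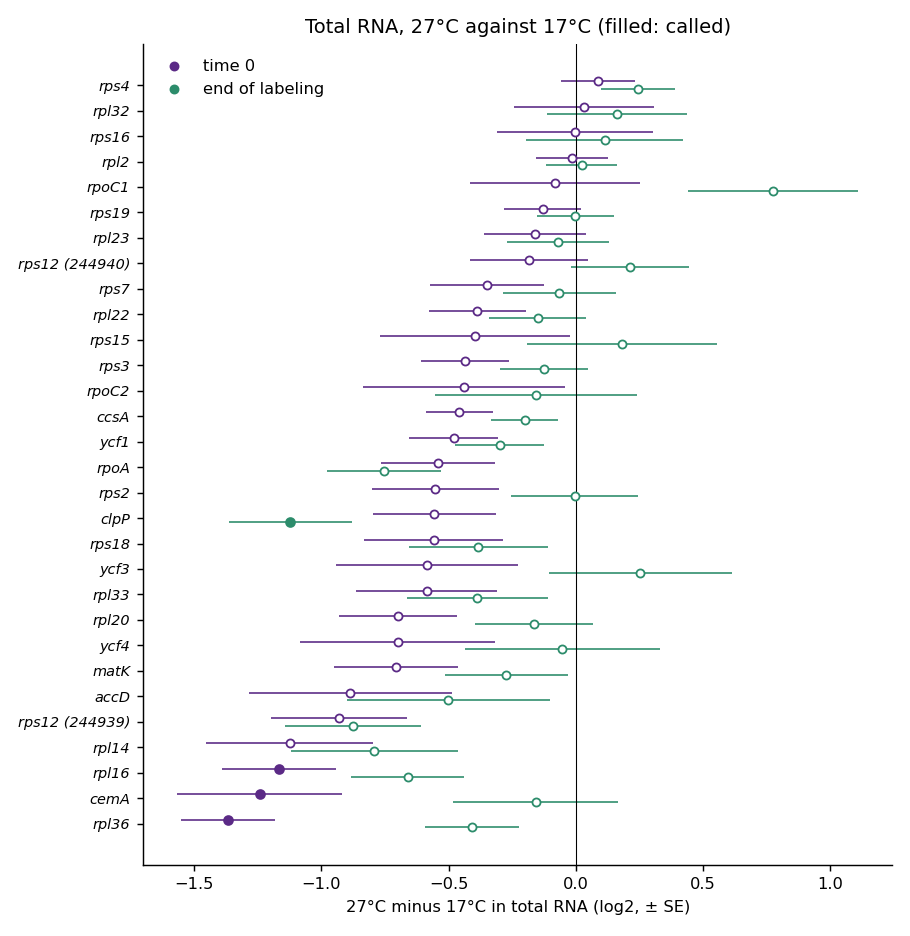
Total RNA at 27°C minus 17°C on the log2 scale with its SE (x axis) for 30 of the 31 members (y axis, ordered by the value at time 0), at time 0 and at the end of labeling. Filled points are called; 28 of the 30 estimates shown at time 0 and 22 at the end lie below 0.

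At time 0, 3 members were called lower at 27°C and none higher, while 22.8% of all probe sets were called (12.1% lower). The members' median was −0.54 against −0.01 for all, with 29 of 31 estimates below 0 against 50.5% of all, and the photosynthesis genes had a median of −0.28 with 3 of 40 called lower. All roles lay below 0 in their median: −0.59 for the large subunit, −0.40 for the small subunit, −0.44 for the polymerase, −0.59 for assembly and envelope genes and −0.71 for the protease, lipid and splicing genes. At the end of labeling 1 member was called lower and none higher, while 10.8% of all were called (5.87% lower), and the median was −0.16 against −0.01. Without array 1 of total RNA at 27°C no member was called at the end, without array 2 there were 2 lower, and without array 3 at 17°C 2 were lower at time 0.

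rpl36 gave 4836, 4119 and 4056 at 17°C at time 0 and 1416, 1518 and 2187 at 27°C, with no overlap. It was 2.58-fold lower at 27°C (log2 −1.37 ± 0.19, limma adjusted p = 7.41e-05), and this call held in each alternative fit. At the end the 17°C arrays read 2900, 3112 and 3350 and the 27°C arrays 1950, 2240 and 2962, which overlap by 1 array, and the difference of −0.41 ± 0.19 was not called (adjusted p = 0.13). It is the one member whose change from time 0 differed between the temperatures at an adjusted p below 0.05 in limma, by 0.96 ± 0.26 (adjusted p = 0.0396), which was not called.

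rpl16, in the same cluster, read 3412, 4405 and 2845 in the 17°C plants at time 0, whereas the 27°C plants read 1563, 1549 and 1565, again without overlap (2.24-fold lower, limma adjusted p = 0.00105). This call was lost only in the fit with no limit on signal (adjusted p = 0.0124). At the end the 17°C arrays read 3532, 2422 and 3284 and the 27°C arrays 1410, 2699 and 1866, which overlap. cemA gave 2839, 2828 and 2113 at 17°C at time 0 and 867, 1690 and 874 at 27°C, with no overlap (2.37-fold lower, limma adjusted p = 0.00779). Its end-point signals of 1386, 1037 and 1296 at 17°C and 704, 1983 and 961 at 27°C overlapped. Leaving out any 1 of 5 of the 6 arrays compared ended the call of cemA, with limma adjusted p from 0.0112 to 0.0364.

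clpP gave 6456, 8123 and 4342 at 17°C after 2 h and 2091, 3593 and 2939 at 27°C after 1 h, with no overlap, and was 2.18-fold lower at 27°C (log2 −1.12 ± 0.24, limma adjusted p = 0.00467). At time 0 the 17°C arrays read 6898, 5267 and 6264 and the 27°C arrays 3414, 4006 and 5233, where the highest 27°C array lay just under the lowest 17°C array and the difference of −0.56 ± 0.24 was not called (adjusted p = 0.082). The end-point call rested on the set of arrays: leaving out array 1 or 3 at 27°C, or array 1 or 2 at 17°C, gave limma adjusted p from 0.0138 to 0.0243, and the fits with no limit on signal and with all 24 arrays gave 0.0382 and 0.0156. The 2 rps12 probe sets did not give one answer at the end, with −0.88 ± 0.27 on 244939_at and 0.21 ± 0.23 on 244940_at, and neither was called.

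**Figure D4:**
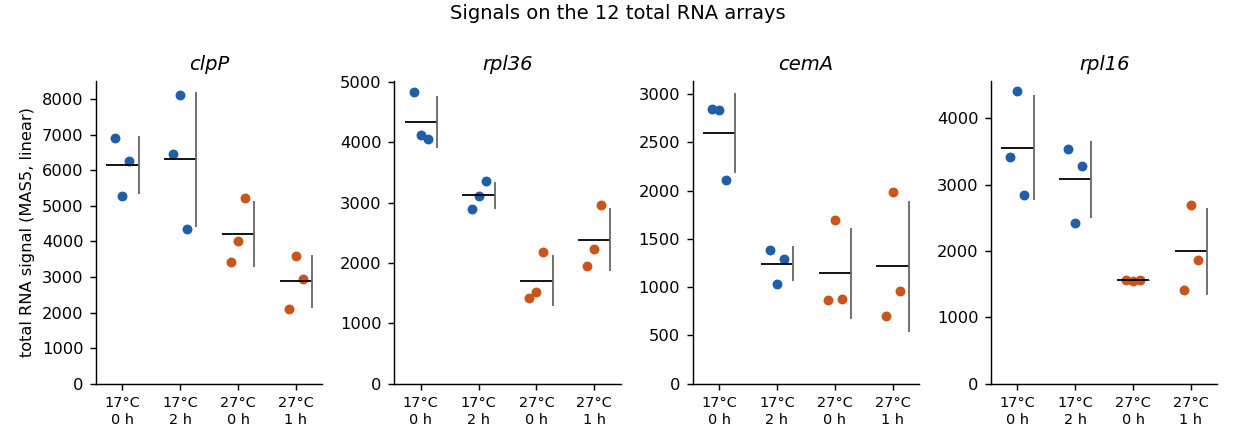
Total RNA signals (linear MAS5 scale, y axis) of clpP, rpl36, cemA and rpl16 on each of the 12 total RNA arrays, by temperature and time (x axis). Points are arrays, black lines group means and grey bars ± SD; for rpl36, rpl16 and cemA every time 0 array at 27°C lies below every time 0 array at 17°C.

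From time 0 to the end of labeling no member was called at 17°C (12.4% of all were, and 5 members had an unadjusted p below 0.05) or at 27°C (25.8% of all, and 4 members below 0.05 unadjusted). At 17°C 28 of 31 estimates were below 0, with a median of −0.30 against −0.06 for all probe sets, and the lowest were cemA with −1.06 ± 0.33 and rpl33 with −0.89 ± 0.28. At 27°C 12 of 31 were below 0, with a median of 0.06 against −0.04, and the highest with an adjusted p below 0.05 in limma were rpl36 with 0.49 ± 0.19 and ccsA with 0.41 ± 0.13. The difference of the 2 changes had a median of 0.28 against 0.03, no member was called while 2.38% of all were, and 2 members had an unadjusted p below 0.05. The percentages of all are for calls, and shares of all at an unadjusted p below 0.05 were not counted. Without array 1 or array 2 of total RNA at 27°C after 1 h, which stood apart for the members, there was likewise no call for the change at 27°C or for the difference of the changes.

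The nuclear partners of this machinery could be followed only in part, by lists of genes named here by locus. The sigma factors and phage-type polymerases were not analysed here. Of 12 listed proteins associated with the plastid polymerase 1 was matched to a tested probe set, PAP9, an iron superoxide dismutase also known as FSD2. It was lower at 27°C both at time 0 (−0.74 ± 0.15, limma adjusted p = 0.00148) and at the end (−0.80 ± 0.15, adjusted p = 0.0018). Of 6 listed genes of plastid RNA decay and processing 1 was matched to a tested probe set, the ribonuclease J gene RNJ. RNJ was lower at 27°C at time 0 (−0.88 ± 0.17, limma adjusted p = 0.0013). The 7 nuclear-encoded plastid ribosomal protein genes were not called between the temperatures in total RNA.

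The last question was at what rates the members were made and lost. A half-life follows from the fall of scaled PE below the total RNA at time 0, so it exists only where PE lay below time 0. This held in all 3 replicates for 22 of 31 members at 17°C (71.0%, against 56.1% of all probe sets) but for 12 at 27°C (38.7% against 63.7%). For the photosynthesis genes it held for 24 of 40 at 17°C (60%) and for 9 at 27°C (22.5%). At 27°C cemA, rps15 and ycf4 had scaled PE above time 0 in each replicate. The 10 members with rates at both temperatures (32.3%, against 47.0% of all) included matK, rpl14, rpl2, rpl33, rpoC1, rpoC2, rps18, rps19 and rps2, and they are those that passed this condition, not a sample of the members. Each PE array was set against the time 0 array of the same number, although numbers did not pair time 0 with the end. The replicate half-lives, their SD and these counts rest on that arbitrary pairing.

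**Figure D5:**
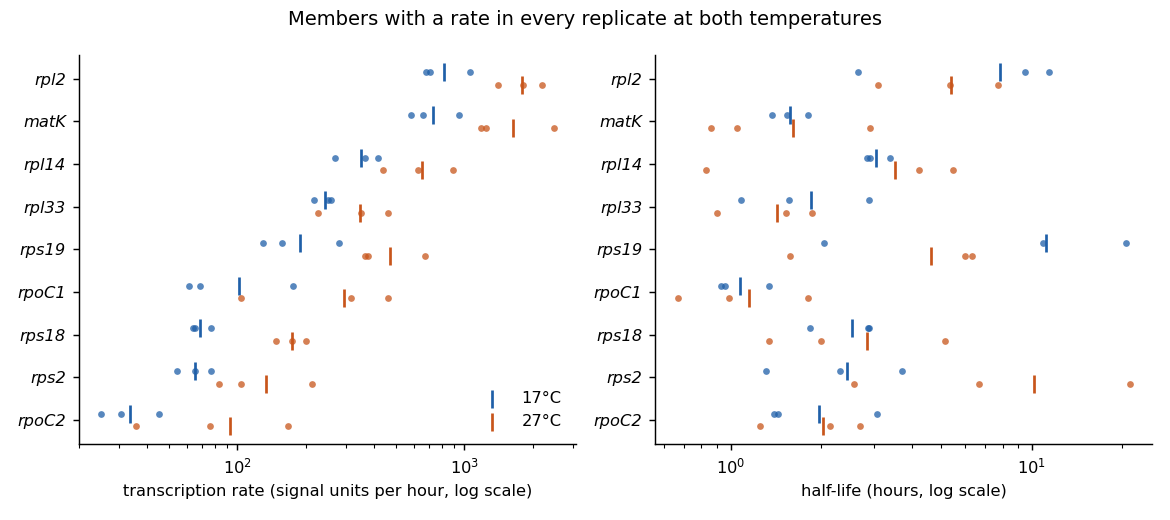
Transcription rates (left, signal units per hour) and half-lives (right, hours), both on log axes, of 9 of the 10 members with values in all replicates at both temperatures. Points are replicates and bars their means; rates at 27°C lie to the right of those at 17°C for most members, while half-lives at both temperatures overlap for each of them.

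Transcription rates of 8 of the 10 were called higher at 27°C at a limma adjusted p below 0.05, where 98.1% of all 6061 probe sets with rates were called (98% higher). All rates of a temperature share 1 NS factor (0.134 at 17°C, 0.219 at 27°C) and 1 labeling time (2 h and 1 h). A part of each ratio is thus common to all probe sets, and the p-values carry no error of it. Unscaled NS signals, 27°C minus 17°C, had a median log2 difference of −0.42 over the 31 tested members and 0.02 over all probe sets. The log2 ratio of rates, 27°C over 17°C, ran from 0.46 for rpl33 to 1.46 for rpoC1 with a median of 1.13, against 1.79 for all. The call of rpoC1 was lost in 5 of 11 refits and that of rpoC2 in 4 of 11 (limma adjusted p up to 0.0889 and 0.0802). The other called members kept theirs in every refit where they had rates. The 6 photosynthesis genes with rates at both temperatures had a median of 1.52, and 4 of them were called higher. For rps18 the rate was 65.3, 76.9 and 63.5 signal units per hour at 17°C and 173, 201 and 148 at 27°C, with a log2 ratio of 1.34 ± 0.18 and no overlap (limma adjusted p = 2.66e-05). For matK it was 944, 659 and 582 at 17°C and 1182, 2476 and 1246 at 27°C, also without overlap (1.11 ± 0.29, limma adjusted p = 0.0034). rpl33 was not called, at 0.46 ± 0.25 (limma adjusted p = 0.093).

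For decay none of the 10 was called at a limma adjusted p below 0.05, nor at an unadjusted p below 0.05, while 64.5% of all probe sets with rates were called. The median log2 ratio of decay constants was 0.11, against 1.55 for all. The low ratio was not particular to the members: the 6 photosynthesis genes with rates had a median of 0.37, and 1 was called higher. Median half-lives of the 10 were 2.29 ± 0.321 h at 17°C and 2.26 ± 0.786 h at 27°C (SD over 3 replicates), where those of all probe sets were 3.06 ± 0.137 h and 1.03 ± 0.0247 h. Single members carried wide errors. rpoC2, the beta double-prime subunit of the polymerase, was the one whose SD stayed under 0.5 times the mean at both temperatures: its half-life was 1.39, 1.44 and 3.06 h at 17°C and 2.14, 2.68 and 1.25 h at 27°C, which overlap (log2 ratio of decay −0.08 ± 0.46). The half-life of matK was 1.54, 1.81 and 1.37 h at 17°C and 2.91, 1.05 and 0.861 h at 27°C. For rps2 a single replicate at 27°C reached 21.2 h, where PE was close to the level at time 0 and a small change in PE moves the half-life by hours.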

How the data were processed

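The authors made the deposited intensity values with MAS5 (its version was not stated in the labels or the methods) as linear signals from 24 ATH1 arrays of 1 channel, with 3 biological replicates per group by the methods. Of 22810 probe sets listed, 64 AFFX controls were left out. The platform annotation names 13513 of the rest with 1 gene, 503 with several and 8730 with none. Of the members, 7 probe sets are named with 2 loci of 1 gene and cannot tell these apart. Of all members, 1 is counted but not reported here. Members, lists and tests were chosen with earlier results of these data known.

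Detection calls were not used here; a signal of at least 50 on all 12 total RNA arrays stands in for them. SAM was not installed, and limma 3.58.1 (lmFit, eBayes) in R 4.3.3 was run on log2 signals with no pseudocount, once over the 12 total RNA arrays and once over the 12 fraction arrays, with Benjamini-Hochberg adjustment over 12906 probe sets. Correction factors, half-lives and rates followed the equations of the methods, within each replicate number, and rates were called at an adjusted p below 0.05. p-values measure the spread between these samples only, and the number of arrays limits the precision. Values in every sample are given for members called in total RNA, the 3 with the largest and smallest NS minus PE at each temperature, the brightest and the dimmest, and those with half-life SD under 0.5 times the mean at both temperatures.

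NS, PE and total RNA of 1 number at 1 temperature come from 1 RNA sample: deviations from the group means correlated at 0.149 to 0.468 for the same number. Different numbers of these groups reached at most 0.178, between total RNA and PE at 27°C, where number 1 had 0.157. Numbers paired neither time 0 with the end (−0.00513 to 0.161) nor the temperatures. On simulated data the test recovered 60% of probe sets changed by 1 and 98% of those changed by 2 on the log2 scale in total RNA at the end of labeling, and 49% and 95% in NS minus PE at 27°C. Alternatives were other limits on signal, quantile and median scaling, a pseudocount, a fit over all 24 arrays, blocks, single arrays left out, and other regression lines. Figures were drawn with matplotlib 3.10.9.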

Additional observations from a re-analysis of the deposited data

Results flagged for a closer look

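For rpl36 the 27°C change from time 0 to the end of labeling minus the 17°C change was 0.96 ± 0.26 on the log2 scale (limma interaction term over the 12 total RNA arrays, adjusted p = 0.0396). This was not called by the rule of an adjusted p below 0.01. At an adjusted p below 0.05, 409 of all 12906 probe sets were higher for this difference. The changes span 1 h at 27°C and 2 h at 17°C, so temperature and time cannot be told apart. Its total RNA estimate fell by 0.47 at 17°C and was 0.49 at 27°C.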

How the results depend on the processing

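Leave-one-out aside, 164 of 190 recomputed counts and shares stayed within the limits set for them and 26 moved, and no single member reversed its direction in 602 refits, of which 89 lost the call. With no limit on signal, the counts were 0 lower in total RNA at the end (1 in the report), 1 lower at time 0 (3), 3 higher and 4 lower for NS minus PE at 17°C (6 and 8) and 9 lower at 27°C (14). Rates without the limit used the factors of the report, since the regression over all probe sets gave negative NS factors (−0.540 and −0.628). With a limit of 100, with a pseudocount of 32 and with the replicate block, time 0 gave 5 lower and NS at 27°C against 17°C gave 1 lower (0 in the report). Quantile scaling also gave 1 lower there, and median scaling 3 higher at 17°C and 1 at 27°C for NS minus PE. PE at 27°C against 17°C gave 1 higher (0) with a limit of 100, a pseudocount of 32 and all 24 arrays, and all 24 arrays gave 0 lower in total RNA at the end. At an adjusted p below 0.05 with no fold limit, 4 members were lower at the end and 10 at time 0. Of all 12906 probe sets 1547 and 2652 were. From time 0 to the end, 3 members were lower at 17°C (1748 of all) and 2 higher at 27°C (2458 of all). For the difference of these changes 1 member was higher (409 of all). At 27°C against 17°C, 1 member was lower in NS (1540 of all) and 1 higher in PE (994 of all). One regression line per replicate gave a median share of 8.38% at 17°C (10.9%).

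The number as a replicate block across both temperatures gave 5 lower at time 0 and 15 lower for NS minus PE at 27°C, and it ended no call. A block for the RNA sample within each temperature, chosen after seeing the data, ended the call of rpl2 at 17°C (limma adjusted p = 0.0118) and no other call in NS minus PE. Leaving out 1 array at a time, members called ran from 0 to 2 lower in total RNA at the end (2 without 27°C total array 2), 2 to 4 at time 0, 0 to 1 lower from time 0 at 17°C (1 without the 2 h array 2) and 0 to 1 higher at 27°C (1 without the time 0 array 3). For NS minus PE they ran from 3 to 5 higher and 5 to 8 lower at 17°C (5 without NS array 1, PE array 1 or PE array 3, and 3 higher without NS array 1 or PE array 2) and from 2 to 3 higher and 10 to 17 lower at 27°C. PE between temperatures ran from 0 to 1 in either direction (1 higher without 27°C PE array 1, 1 lower without PE array 2), rates from 6 to 11 higher, decay from 0 to 1 lower (1 without 27°C replicate 1), and the 27°C share from 13.4 to 17.6%, with 10.4 to 11.6% at the lower temperature. The causes were not tested.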
